A study of Rattus norvegicus with 6 samples.

Results

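The nuclear genes of the mitochondrial respiratory chain and of ATP synthase were compared in rat calvarial bone defects (openings cut into the skull vault) treated with 1 of 2 hydrogels. Members were the protein-coding entries of the deposited gene table whose symbols begin with Ndufa, Ndufb, Ndufc, Ndufs or Ndufv and a number, with Uqcr, with Cox5, Cox6 or Cox7 and a subunit letter a, b or c, or with Atp5. Cox6a1, Cox6a2, Cox7a1 and Cox7a2, which form muscle and non-muscle pairs, were left out of this set and are given separately. The rule found 73 entries with 71 different symbols among 34045 genes: 37 with complex I names, 9 of complex III, 11 with complex IV names and 16 of ATP synthase. Of these, 70 had a mean of at least 0.5 FPKM and were tested together with the other genes that passed this filter, 15965 in all. The remaining 3 members, Ndufa10l1, Cox7b2 and Cox6c-ps1, were listed at 0 in all 6 libraries.

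The CGG-Cit group held 3 libraries of defects that received the CGG-Cit gel, and the CGG group held 3 libraries of defects that received the CGG gel. All came from male wild type Sprague-Dawley rats and from defect tissue taken at week 4 after surgery, and their age is not given in those labels. The labels do not spell out CGG or Cit, and empty defects or intact bone were not analysed here. Nothing in the labels ties each library to a rat of its own, so the p-values reflect the scatter of these libraries alone, part or all of which may be technical. Minced whole defect tissue was sequenced, so that fewer cells of a type and less RNA per cell cannot be told apart.

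Oxidative phosphorylation runs in the inner mitochondrial membrane. Complex I passes electrons from NADH to ubiquinone, complex III passes them on to cytochrome c and complex IV to oxygen, and the proton gradient that these complexes build drives ATP synthase. Most subunits are encoded in the nucleus and a few in the mitochondrial genome, and tissues with many mitochondria, such as red muscle, heart and brown fat, express the genes at high levels. NRF1, GABPA, the oestrogen-related receptors (ERR) and YY1 are transcription factors known to bind the promoters of such genes, and PGC-1 coactivators work with several of them.

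Sequence from RefSeq was available for the promoters of 62 members, 61 matched by symbol and 1, Atp5md, by the synonym Atp5mk, and the window ran from 250 bases before to 50 bases after the annotated start on the build GRCr8. The letters GCGCATGC for NRF1, CCGGAAGT for GABPA, AAGATGGC for YY1 and AAGGTCA for ERR were searched on both strands. The promoters of Ndufa11 and Atp5mc2, members with lower levels in CGG-Cit libraries, and of Ndufa4l2, the member with higher levels, show the kinds of match that were found. In the first and the second, capitals mark overlapping matches to the NRF1 letters, which are read on both strands of the same run. In the third, capitals mark the YY1 letters, which lie across the start.
Ndufa11, chr9:1637364-1637663, plus strand: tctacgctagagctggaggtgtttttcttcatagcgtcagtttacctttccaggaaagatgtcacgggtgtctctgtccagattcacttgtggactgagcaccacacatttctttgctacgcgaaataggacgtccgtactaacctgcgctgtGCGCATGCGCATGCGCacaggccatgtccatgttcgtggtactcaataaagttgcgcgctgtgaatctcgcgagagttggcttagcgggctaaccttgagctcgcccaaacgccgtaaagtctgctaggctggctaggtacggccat
Atp5mc2, chr7:135678169-135678468, minus strand: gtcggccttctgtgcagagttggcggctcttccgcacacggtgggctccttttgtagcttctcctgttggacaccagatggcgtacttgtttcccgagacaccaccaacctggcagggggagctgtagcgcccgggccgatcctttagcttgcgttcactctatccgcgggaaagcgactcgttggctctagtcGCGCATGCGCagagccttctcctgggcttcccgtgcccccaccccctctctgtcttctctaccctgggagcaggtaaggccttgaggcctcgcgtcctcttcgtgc
Ndufa4l2, chr7:65241919-65242218, plus strand: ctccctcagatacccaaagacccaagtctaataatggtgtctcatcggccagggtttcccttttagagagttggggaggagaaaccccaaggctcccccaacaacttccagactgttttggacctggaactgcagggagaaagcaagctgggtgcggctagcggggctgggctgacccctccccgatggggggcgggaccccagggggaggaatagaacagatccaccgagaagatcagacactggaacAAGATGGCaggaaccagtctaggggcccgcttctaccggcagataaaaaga
The NRF1 letters stood in 7 of the 62 member promoters (11.3%) and in 3.11% of 21851 promoters of protein-coding genes. The GABPA letters stood in 7 members (11.3%) and in 4.77% of all these promoters, and the ERR letters in 8 members (12.9%) and in 3.78%. The YY1 letters were found in 13 members (21.0%) and in 3.67% of all promoters, with 9 of their 13 matches in the members lying from the start onward. These letters hold an ATG, and whether such matches lie at a translation start was not tested. Letters that are common in promoters stood at closer shares: GGGCGG, the SP1 box, in 41.9% of members and 41.8% of all promoters, and ACGTG, the core of the hypoxia response element, in 25.8% and 19.9%. At least 1 of the first 4 motifs was present in 28 of 62 member promoters (45.2%) and in 14.3% of all promoters. Among the 26 members with lower levels that had a sequence, 11 held such a match. The NRF1 letters stood in 5 of these 26 and in 2 of the 36 other members, and the GABPA letters in 4 and 3. The YY1 letters stood in 5 and 8, and the ERR letters in 2 and 6. Whether the letters go with the fall was not tested. The promoters of Uqcrfs1 and Cox5a, also lower, held none of these 4 strings of letters.

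Most members stood at lower levels in the CGG-Cit defects than in the CGG defects. The summed FPKM of the members was 0.733 times that of the CGG defects, and the summed FPKM of all genes tested was 0.883 times. Of the 70 members tested, 28 fell (40.0%) and 1 rose (1.43%) at an adjusted p under 0.05 in limma, a linear model fitted to log2(FPKM + 1) over all genes, against a background of 9.78% of all genes tested that fell and 7.75% that rose. FPKM count sequenced fragments relative to the length of the gene and the size of the library. Another 41 members did not pass. The log2 fold change, CGG-Cit minus CGG throughout, was negative for 65 members and positive for 5, with a median of -0.42 over the members and 0.00 over all genes tested. All 3 CGG-Cit libraries lay below all 3 CGG libraries for 51 members, above them for 2, and among them for 17, where the background of all genes tested was 22.1% below and 19.6% above. The 28 members that fell had log2 fold changes of -0.83 to -0.40 on the log2(FPKM + 1) scale. Their mean FPKM in CGG-Cit libraries was 0.568 to 0.755 times that in CGG libraries, and all 28 were among the 51. Rescaled to TPM, which sets the totals equal, the median over all genes tested moved to 0.16, the members had a median of -0.25, which is 0.41 below it, and 13 members fell and 2 rose. On that scale 69.9% of the calls over all genes were higher in CGG-Cit, against 44.2% on FPKM as deposited. Of all genes tested, 5.94% fell and 13.8% rose on TPM.

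**Figure D1:**
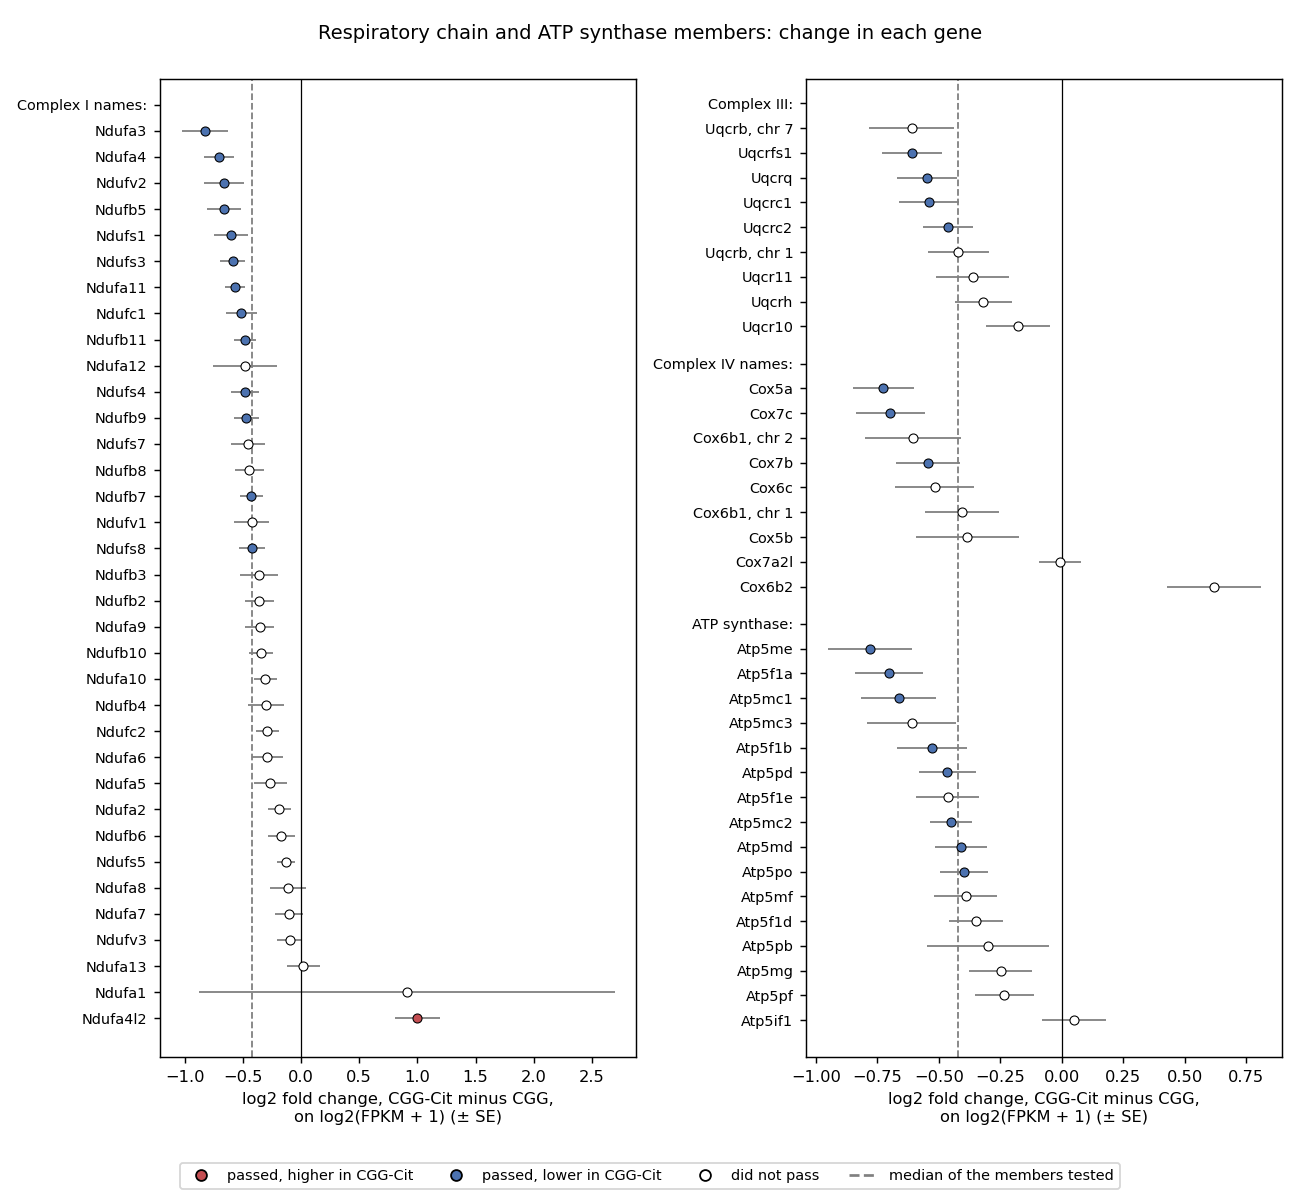
Log2 fold change of 69 tested members, CGG-Cit minus CGG on log2(FPKM + 1), with bars of 1 standard error (limma, n = 3 libraries a group), grouped by complex; blue points fell, red points rose and open points did not pass. Most points lie between -0.83 and 0, the dashed line marks the median of -0.42, and Ndufa4l2 stands at 0.997.

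The summed level of the members was 5447, 5603 and 5424 FPKM in CGG-Cit 1 to 3, against 6411, 8106 and 7970 FPKM in CGG 1 to 3. The CGG-Cit libraries were close together and below every CGG library, while CGG 1 stood apart from CGG 2 and CGG 3 in the direction of the CGG-Cit libraries. CGG 1 was the lowest CGG library for 63 of the 70 members and CGG 2 the highest for 46. In reads, members took 0.467%, 0.475% and 0.474% of the assigned reads in CGG-Cit 1 to 3, against 0.575%, 0.649% and 0.686% in CGG 1 to 3. The call of single members depended on which libraries were used. The number that fell was 2 without CGG-Cit 1, 0 without CGG-Cit 2, 13 without CGG-Cit 3, 37 without CGG 1, 1 without CGG 2 and 0 without CGG 3. In those fits 3.06%, 1.56%, 10.2%, 4.17%, 3.12% and 1.19% of all genes fell, in the same order, and 35 to 54 members were lower at an unadjusted p under 0.05. The median over the members stayed between -0.52 and -0.36 in these 6 fits, and no member that passed with all libraries passed in all 18 alternative fits.

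**Figure D2:**
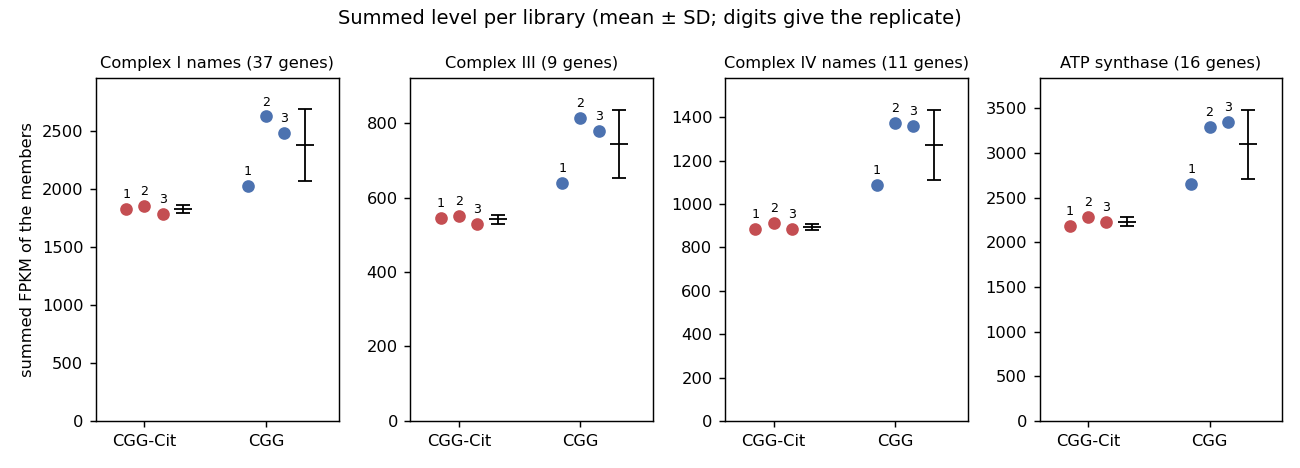
Summed FPKM of the members of each complex in every library, with the mean and SD of each group (n = 3 libraries) beside the points and digits for the replicate number; all axes start at 0. In all 4 panels the CGG-Cit libraries lie close together below the CGG libraries, and CGG 1 is the lowest CGG library.

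Complex I names covered 36 tested members, of which 13 fell and 1 rose, with a median log2 fold change of -0.39. Their summed level was 1824 ± 34.5 FPKM in CGG-Cit libraries and 2380 ± 311 FPKM in CGG libraries (SD, n = 3 each). Of the 7 core subunits, which carry the flavin and the iron-sulfur clusters or shape the quinone site, 4 fell. Ndufs1, the largest subunit of the electron input arm, had 30.1, 28.4 and 29.1 FPKM in CGG-Cit 1 to 3, against 37.5, 43.1 and 55.7 FPKM in CGG 1 to 3. Ndufs3, a core subunit of the module that binds ubiquinone, had 27.7, 26.7 and 27.4 FPKM in CGG-Cit libraries and 35.8, 44.6 and 44.8 FPKM in CGG libraries. The CGG-Cit values of both genes were nearly the same in the 3 libraries and lay below all CGG values, and both fell (log2 fold change -0.60 ± 0.15 SE, adjusted p = 0.0368 and log2 fold change -0.59 ± 0.11 SE, adjusted p = 0.0201, limma). Ndufs8, a core subunit with 2 iron-sulfur clusters, had 49.9, 43.7 and 53.1 FPKM in CGG-Cit libraries and 59.9, 72.6 and 64.7 FPKM in CGG libraries. For Ndufv2, a core subunit of the NADH-oxidising module, the values were 53.95, 53.6 and 45.4 FPKM in CGG-Cit libraries and 63.3, 98.4 and 86.2 FPKM in CGG libraries. Both fell without overlap (log2 fold change -0.42 ± 0.11 SE, adjusted p = 0.0478 and log2 fold change -0.67 ± 0.17 SE, adjusted p = 0.0430, limma). Ndufs8 shares 406 bases of its listed span with Unc93b1 on the opposite strand, and without a stated strand setting their shared reads cannot be told apart. Ndufs7 and Ndufv1, also core subunits, did not pass, at adjusted p-values of 0.0721 and 0.101 in limma, and their CGG-Cit libraries also lay below all CGG libraries.

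Of 27 accessory subunits of complex I, which surround the core and are needed for its assembly and stability, 8 fell and 19 did not pass, with a median of -0.35. Ndufa11, an accessory subunit of the membrane arm, had the smallest p of all members. Its level was 66.3, 66.5 and 71.1 FPKM in CGG-Cit 1 to 3, against 94.5, 101 and 109 FPKM in CGG 1 to 3, a mean of 67.96 ± 2.69 FPKM in CGG-Cit libraries and 101 ± 7.37 FPKM in CGG libraries (SD, n = 3 each). The gap between the groups was wider than the range within either, and the log2 fold change was -0.57 (adjusted p = 0.0151 in limma). Ndufa11 is listed on chromosome 9 from 10334090 to 10338216 on the minus strand of the table's own coordinates. The promoter with 4 overlapping NRF1 matches shown above lies on the plus strand of GRCr8 and was matched by symbol and chromosome alone. Why the strands differ was not tested. Ndufa3, an accessory subunit with the largest fall of all members, had 44.1, 52.8 and 29.8 FPKM in CGG-Cit libraries and 68.6, 76.3 and 76.6 FPKM in CGG libraries. CGG-Cit 3 was far below the other CGG-Cit libraries, the groups did not overlap, and the log2 fold change was -0.83 (adjusted p = 0.0368 in limma). It rested on few reads, 138 to 329 per library.

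The other accessory subunits that fell belong mostly to the NDUFB group of the membrane arm. Ndufb5 had 26.4, 30.3 and 32.4 FPKM in CGG-Cit libraries and 38.7, 52.3 and 53.1 FPKM in CGG libraries. For Ndufb7 the values were 61.2, 58.4 and 58.3 FPKM in CGG-Cit libraries and 71.5, 85.4 and 84.3 FPKM in CGG libraries. Both genes had groups that did not overlap, with CGG 1 nearest to the CGG-Cit libraries (log2 fold change -0.66 ± 0.15 SE, adjusted p = 0.0295 and log2 fold change -0.43 ± 0.10 SE, adjusted p = 0.0306, limma). Ndufb9 had 86.4, 91.7 and 86.8 FPKM in CGG-Cit libraries and 107, 132 and 131 FPKM in CGG libraries. Ndufb11, which lies on the X chromosome, had 58.3, 57.5 and 57.6 FPKM in CGG-Cit libraries and 73.2, 87.7 and 83.2 FPKM in CGG libraries. The CGG-Cit values of Ndufb11 differed by less than 1 FPKM, and both genes fell (log2 fold change -0.47 ± 0.11 SE, adjusted p = 0.0315 and log2 fold change -0.48 ± 0.09 SE, adjusted p = 0.0219, limma). Ndufc1 had 33.1, 39.99 and 40.5 FPKM in CGG-Cit libraries and 46.7, 59.98 and 56.96 FPKM in CGG libraries. Ndufs4, an accessory subunit whose loss causes a mitochondrial disease in humans and mice, had 23.9, 21.1 and 20.3 FPKM in CGG-Cit libraries and 26.5, 34.2 and 31.97 FPKM in CGG libraries. Neither gene overlapped between the groups (log2 fold change -0.51 ± 0.13 SE, adjusted p = 0.0417 and log2 fold change -0.48 ± 0.12 SE, adjusted p = 0.0405, limma). Ndufa13, an accessory subunit also known as GRIM-19 and the complex I member with the highest level, did not follow them, with 132, 127 and 104 FPKM in CGG-Cit libraries, 103, 136 and 119 FPKM in CGG libraries and log2 fold change 0.02 ± 0.14 SE, adjusted p = 0.939 in limma. Ndufb8, the second in level, had 89.3, 102 and 86.7 FPKM in CGG-Cit libraries and 109, 144 and 128 FPKM in CGG libraries. The groups of Ndufb8 did not overlap but it did not pass (adjusted p = 0.0546 in limma), whereas those of Ndufa13 overlapped throughout.

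Ndufa4 and Ndufa4l2 carry complex I names, but the Ndufa4 protein is now placed in complex IV, and Ndufa4l2 is a hypoxia-inducible relative that is known to lower the activity of the respiratory chain. Ndufa4 had 60.1, 72.9 and 72.04 FPKM in CGG-Cit 1 to 3, against 96.3, 123 and 117 FPKM in CGG 1 to 3. Ndufa4l2, listed on chromosome 7 from 70821957 to 70824085, had 14.2, 9.48 and 11.5 FPKM in CGG-Cit 1 to 3, against 4.99, 6.78 and 4.39 FPKM in CGG 1 to 3. The relatives moved in opposite directions without overlap of the groups. The log2 fold change was -0.70 for Ndufa4 (adjusted p = 0.0199 in limma) and 0.997 for Ndufa4l2 (adjusted p = 0.0221 in limma), the only member that rose. Ndufa4l2 made up 14.8 ± 3.92% of the summed FPKM of the pair in CGG-Cit libraries and 4.59 ± 0.856% in CGG libraries (SD, n = 3 each). Its reads numbered 63 to 205 per library, and the rise did not pass without CGG-Cit 1, CGG-Cit 2, CGG 1 or CGG 3; over its 18 alternative fits the highest adjusted p in limma was 0.0793. Ndufa12, an accessory subunit with the lowest mean level among the complex I members, had 3.28, 3.25 and 3.64 FPKM in CGG-Cit libraries and 2.87, 6.91 and 6.52 FPKM in CGG libraries. CGG 1 stood with the CGG-Cit libraries there, and the gene did not pass (adjusted p = 0.262 in limma).

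Complex III had 9 tested members, of which 4 fell, with a median of -0.46 and a negative log2 fold change in all 9. Their sum was 542 ± 12.03 FPKM in CGG-Cit libraries and 745 ± 92.1 FPKM in CGG libraries (SD, n = 3 each). Of the core proteins and the Rieske protein, all 3 fell. Uqcrfs1, the Rieske iron-sulfur protein that hands electrons towards cytochrome c1, had 91.96, 84.8 and 87.4 FPKM in CGG-Cit libraries and 115, 139 and 153 FPKM in CGG libraries. Uqcrc1, a core protein, had 79.2, 73.3 and 79.1 FPKM in CGG-Cit libraries and 95, 119.8 and 125 FPKM in CGG libraries. Uqcrc2, the other core protein, had 46.99, 48.8 and 47.3 FPKM in CGG-Cit libraries and 59.8, 64.8 and 74.4 FPKM in CGG libraries. In all 3 genes the CGG-Cit libraries were tightly grouped below CGG 1, the lowest CGG library. The log2 fold changes were -0.61 for Uqcrfs1, -0.54 for Uqcrc1 and -0.46 for Uqcrc2, at adjusted p-values of 0.0233, 0.0309 and 0.0284 in limma.

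Among the 6 entries for small complex III subunits, Uqcrq alone fell. It had 36.6, 35.99 and 32.95 FPKM in CGG-Cit libraries and 44.8, 60.03 and 51.6 FPKM in CGG libraries, with log2 fold change -0.55 ± 0.12 SE, adjusted p = 0.0295 in limma and no overlap. Uqcr11, with the highest mean of the complex, had 107, 110.4 and 113 FPKM in CGG-Cit libraries and 114, 167 and 151 FPKM in CGG libraries. Uqcrh, the hinge protein, had 107, 108 and 94.8 FPKM in CGG-Cit libraries and 122, 148 and 118 FPKM in CGG libraries. For both, the lowest CGG library was close to the CGG-Cit libraries, and neither passed (adjusted p = 0.136 and adjusted p = 0.106 in limma). Uqcr10 had 31.9, 34.9 and 30.4 FPKM in CGG-Cit libraries and 31.6, 43.2 and 36.2 FPKM in CGG libraries, overlapped and did not pass (adjusted p = 0.368). The table holds 2 entries called Uqcrb, and the RefSeq gene table lists the one on chromosome 1 as a pseudogene, Uqcrb-ps1, so reads of near-identical copies may be split between them. The entry on chromosome 7 had 8.33, 10.7 and 8.51 FPKM in CGG-Cit libraries and 11.5, 14.8 and 17.7 FPKM in CGG libraries. The entry on chromosome 1 had 37.5, 44.3 and 34.9 FPKM in CGG-Cit libraries and 46.5, 57.1 and 53.4 FPKM in CGG libraries. Neither entry overlapped between the groups and neither passed (adjusted p = 0.0556 and adjusted p = 0.0621 in limma).

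**Figure D3:**
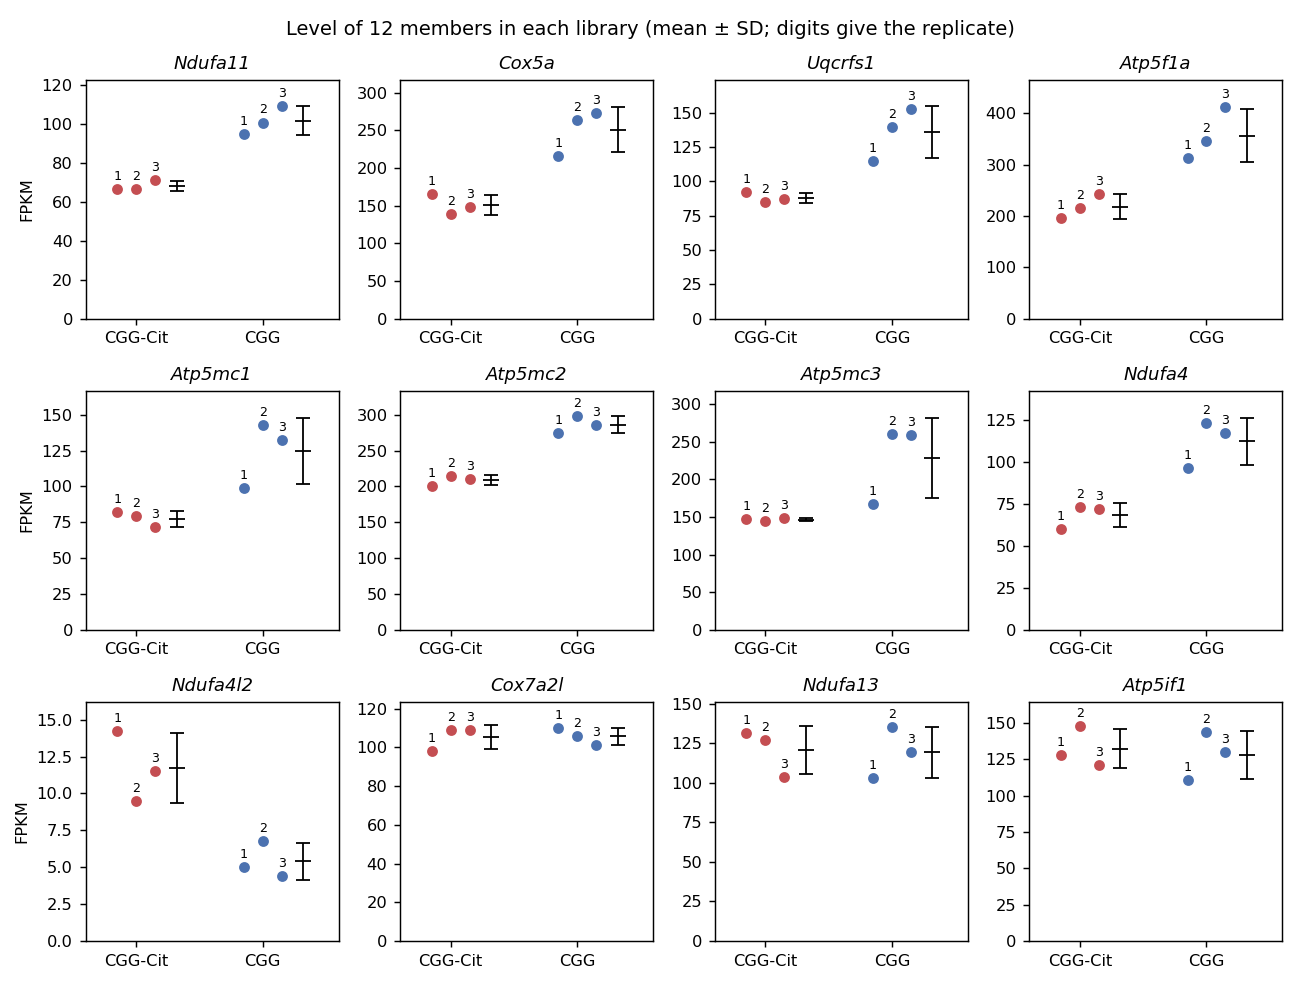
FPKM of 12 members in each library, with the mean and SD of each group (n = 3 libraries) beside the points; every axis starts at 0. Ndufa11, Cox5a, Uqcrfs1, Atp5f1a and Ndufa4 show CGG-Cit libraries below CGG libraries, Ndufa4l2 shows the reverse order, and Cox7a2l, Ndufa13 and Atp5if1 overlap.

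Of 9 tested members with complex IV names, 3 fell, with a median of -0.52 and sums of 894 ± 15.8 FPKM in CGG-Cit libraries and 1272 ± 161 FPKM in CGG libraries (SD, n = 3 each). Cox5a, one of the subunits that face the matrix, had 165, 139 and 148 FPKM in CGG-Cit 1 to 3, against 216, 263 and 273 FPKM in CGG 1 to 3. Every CGG-Cit library lay below every CGG library, and the log2 fold change was -0.72 (adjusted p = 0.0179 in limma). Cox7c, a small membrane subunit, had 104, 127 and 104 FPKM in CGG-Cit libraries and 156, 209 and 181 FPKM in CGG libraries. Cox7b, another small membrane subunit, had 88.6, 103 and 94 FPKM in CGG-Cit libraries and 118, 159.8 and 142 FPKM in CGG libraries. Both fell without overlap (log2 fold change -0.70 ± 0.14 SE, adjusted p = 0.0247 and log2 fold change -0.54 ± 0.13 SE, adjusted p = 0.0357, limma). Cox6c, which had the highest level of the complex, had 152, 183 and 162 FPKM in CGG-Cit libraries and 189, 272 and 257 FPKM in CGG libraries. It did not pass (adjusted p = 0.0704 in limma), although the groups did not overlap.

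Cox6b1 and Cox6b2 are the general and the testis form of a complex IV subunit that faces the intermembrane space. The Cox6b1 entry on chromosome 1 had 120.0, 116 and 109.9 FPKM in CGG-Cit libraries and 124, 183 and 158 FPKM in CGG libraries. A second entry of that name on chromosome 2, which the RefSeq gene table lists as the pseudogene Cox6b1-ps1, had 25.8, 41.95 and 31.97 FPKM in CGG-Cit libraries and 42.3, 51.96 and 57.1 FPKM in CGG libraries. Neither passed (adjusted p = 0.108 and adjusted p = 0.0770 in limma). Cox6b2 went the other way, with 5.15, 5.51 and 5.58 FPKM in CGG-Cit libraries and 2.93, 4.49 and 2.38 FPKM in CGG libraries. Its groups did not overlap, but with 17 to 44 reads per library it did not pass (log2 fold change 0.62 ± 0.19 SE, adjusted p = 0.0695 in limma). Cox7a2l, a factor that joins complexes III and IV into supercomplexes, had 98.01, 109 and 109 FPKM in CGG-Cit libraries and 109.9, 106 and 101 FPKM in CGG libraries. The groups overlapped, and the log2 fold change of -0.01 changed sign with the scaling, being 0.17 on TPM. Cox5b had 127, 87.01 and 119.7 FPKM in CGG-Cit libraries and 128, 123 and 186 FPKM in CGG libraries, with CGG-Cit 1 above CGG 2, and did not pass (adjusted p = 0.236).

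ATP synthase had the highest share of members that fell, 8 of 16, with a median of -0.43 and sums of 2232 ± 50.8 FPKM in CGG-Cit libraries and 3099 ± 387 FPKM in CGG libraries (SD, n = 3 each). Whether this share differs from that of the other complexes was not tested. The rotor head F1 makes ATP from ADP and phosphate. Atp5f1a, the alpha subunit of F1, had 196, 215 and 244 FPKM in CGG-Cit libraries and 313, 345 and 412 FPKM in CGG libraries. Atp5f1b, the catalytic beta subunit and the member with the highest level, had 396, 415 and 420.4 FPKM in CGG-Cit libraries and 494, 607 and 688 FPKM in CGG libraries. Both subunits fell, and the highest CGG-Cit library was below the lowest CGG library for each (log2 fold change -0.70 ± 0.14 SE, adjusted p = 0.0234 and log2 fold change -0.53 ± 0.14 SE, adjusted p = 0.0481, limma). Atp5f1e, the epsilon subunit, had 184, 208 and 198 FPKM in CGG-Cit libraries and 236, 315 and 270.1 FPKM in CGG libraries, and did not pass (adjusted p = 0.0521). Atp5f1d, the delta subunit of the central stalk, had 51.1, 47.4 and 49.04 FPKM in CGG-Cit libraries and 54.2, 67.7 and 67.4 FPKM in CGG libraries. It did not pass either (log2 fold change -0.35 ± 0.11 SE, adjusted p = 0.0739 in limma), and in neither of these did the groups overlap.

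The ring of c subunits that turns with the proton flow is made from 3 genes, Atp5mc1, Atp5mc2 and Atp5mc3, that encode the same mature protein. Atp5mc1 had 81.99, 79.1 and 71.4 FPKM in CGG-Cit libraries and 98.7, 143 and 132 FPKM in CGG libraries. Atp5mc2 had 201, 215 and 211 FPKM in CGG-Cit libraries and 274, 298 and 286 FPKM in CGG libraries. Atp5mc3 had 147, 144 and 149 FPKM in CGG-Cit libraries and 168, 261 and 259 FPKM in CGG libraries. The CGG-Cit libraries of Atp5mc2 and Atp5mc3 were nearly level with each other, and CGG 1 of Atp5mc3 lay much closer to them than CGG 2 and CGG 3 did. Atp5mc1 and Atp5mc2 fell (log2 fold change -0.66 ± 0.15 SE, adjusted p = 0.0314 and log2 fold change -0.45 ± 0.09 SE, adjusted p = 0.0219, limma), while Atp5mc3 had a log2 fold change of -0.61 and did not pass (adjusted p = 0.0605). The shares of the genes in the summed FPKM were close between the groups: Atp5mc1 took 17.9 ± 1.25% in CGG-Cit libraries and 19.4 ± 1.06% in CGG libraries, and Atp5mc2 took 48.2 ± 1.31% in CGG-Cit libraries and 45.1 ± 4.81% in CGG libraries (SD, n = 3 each).

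In the peripheral stalk, which holds the head still, Atp5po and Atp5pd fell. Atp5po, the subunit OSCP, had 104, 97.5 and 104 FPKM in CGG-Cit libraries and 121, 139.8 and 144 FPKM in CGG libraries. Atp5pd, subunit d, had 94.4, 99.1 and 94.8 FPKM in CGG-Cit libraries and 114, 146 and 142 FPKM in CGG libraries. The groups did not overlap in either (log2 fold change -0.40 ± 0.10 SE, adjusted p = 0.0380 and log2 fold change -0.47 ± 0.12 SE, adjusted p = 0.0386, limma). Among the small membrane subunits, which shape the dimers of the enzyme, Atp5me (subunit e) had 39.9, 46.2 and 40.8 FPKM in CGG-Cit libraries and 58.5, 71.7 and 93.2 FPKM in CGG libraries. Atp5md, also called DAPIT, had 154, 158 and 149.8 FPKM in CGG-Cit libraries and 181, 215 and 221 FPKM in CGG libraries. Atp5me had the second largest fall of all members and Atp5md a smaller one (log2 fold change -0.78 ± 0.17 SE, adjusted p = 0.0288 and log2 fold change -0.41 ± 0.10 SE, adjusted p = 0.0416, limma). Atp5if1, the protein that blocks ATP synthase from running backwards, had 128, 148 and 121 FPKM in CGG-Cit libraries and 111, 143 and 129.8 FPKM in CGG libraries. It is not a structural subunit, its groups overlapped, and its log2 fold change was 0.05 ± 0.13 (adjusted p = 0.812 in limma).

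A few members could not be read as single genes, because the table holds a separate entry described as the same subunit. Ndufa1, an accessory subunit of complex I, had 40, 1 and 217 reads in CGG-Cit 1 to 3, against 2, 173 and 3 reads in CGG 1 to 3. An entry on the same chromosome, LOC108348144, described as the same subunit, had 9, 298 and 4 reads in CGG-Cit libraries and 3, 7 and 10 reads in CGG libraries. Together the entries had 49, 299 and 221 reads in CGG-Cit libraries and 5, 180 and 13 reads in CGG libraries. In CGG-Cit libraries most reads lay at Ndufa1 in 2 libraries and at LOC108348144 in the other, while CGG 1 and CGG 3 had few reads at either entry. The log2 fold change of Ndufa1 was 0.91 (adjusted p = 0.752 in limma). Atp5pb, subunit b of the peripheral stalk and the member with the lowest mean level, had 60, 56 and 44 reads in CGG-Cit libraries and 106, 80 and 41 reads in CGG libraries. LOC100911417, of the same length and described as like subunit b, had 353, 29 and 28 reads in CGG-Cit libraries and 15, 76 and 195 reads in CGG libraries. The levels of both subunits are therefore uncertain here. The listed spans of 14 members overlapped those of other detected genes, and of the 28 that fell, 20 had no such neighbour.

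**Figure D4:**
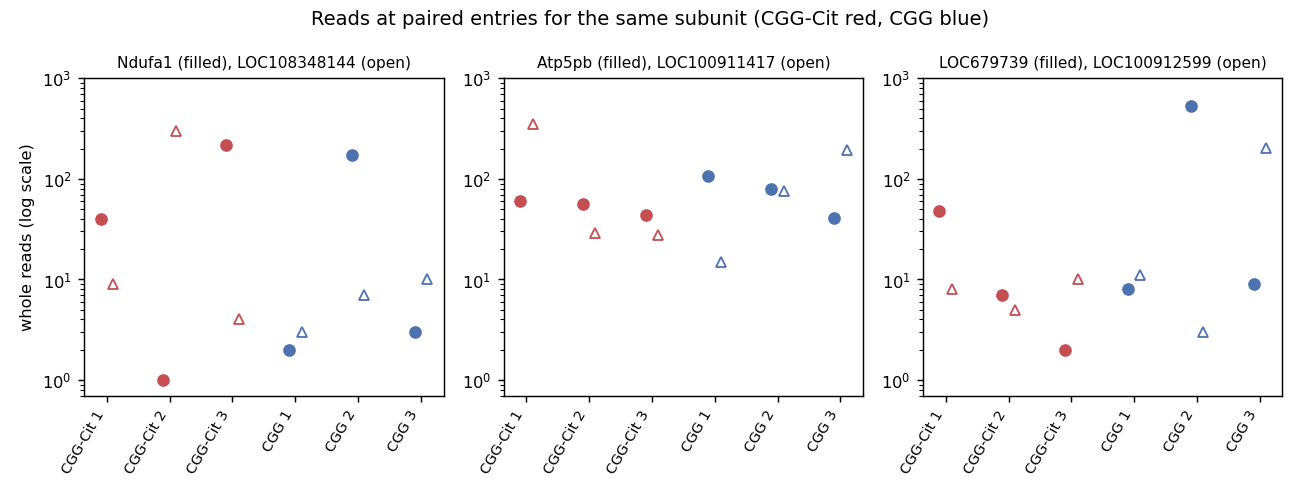
Whole reads recovered from FPKM and gene length for 3 pairs of entries described as the same subunit, in each library, on a log axis; CGG-Cit libraries are red and stand left of the blue CGG libraries. Ndufa1 lies at 40, 1 and 217 reads in CGG-Cit libraries and 2, 173 and 3 reads in CGG libraries, so the libraries of each group differ more from each other than the groups do.

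Levels were unequal within each complex. Mean FPKM over the 6 libraries ran between 4.41 for Ndufa12 and 120 for Ndufa13 in complex I, 11.9 for Uqcrb on chromosome 7 and 127 for Uqcr11 in complex III, 4.34 for Cox6b2 and 202 for Cox6c in complex IV, and 1.99 for Atp5pb and 503 for Atp5f1b in ATP synthase. In the 35 members at or above the median level of 69.1 FPKM, 17 fell, with a median log2 fold change of -0.45. Below the median, 11 of 35 fell and 1 rose, with a median of -0.36. Across the 70 members the log2 fold change and the mean level had a Spearman correlation of -0.21, a description over genes that share the same 6 libraries.

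Genes that act with the members moved to unequal extents. Complex II, which feeds electrons from succinate and is also an enzyme of the tricarboxylic acid cycle, had none of its 4 subunits past the threshold in limma or in limma's voom on recovered reads, with 1 at an unadjusted p under 0.05 in each and a median of -0.20. Sdha had 61.9, 66.5 and 66.5 FPKM in CGG-Cit libraries and 69.1, 80.8 and 85.8 FPKM in CGG libraries, and Sdhb had 94.7, 94.1 and 84.3 FPKM in CGG-Cit libraries and 76.6, 102 and 103 FPKM in CGG libraries. The CGG-Cit libraries of Sdha lay just below the CGG libraries, whereas the groups of Sdhb, Sdhc and Sdhd overlapped, with log2 fold changes of -0.03, -0.15 and -0.24. Of 7 nuclear subunits outside the naming rule, 4 fell: Cyc1, which is cytochrome c1 of complex III, Cycs, which is cytochrome c, Ndufab1, which is the acyl carrier protein of complex I, and Cox8b. Cyc1 had 75.7, 70.6 and 72.6 FPKM in CGG-Cit libraries and 90.6, 127 and 139.7 FPKM in CGG libraries (log2 fold change -0.68 ± 0.16 SE, adjusted p = 0.0364 in limma). Cox4i1, a complex IV subunit, had 303, 332 and 330.2 FPKM in CGG-Cit libraries and 344, 451 and 417 FPKM in CGG libraries, without overlap, and did not pass (adjusted p = 0.128).

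Transcripts of the mitochondrial genome lay in the same direction without passing. All 13 protein-coding genes had a negative log2 fold change, with a median of -0.63, and in 11 of them the CGG-Cit libraries lay below the CGG libraries. None passed in limma or in voom, where 6 and 10 were lower at an unadjusted p under 0.05. All genes listed on the mitochondrial genome, not only these 13, took 4.86%, 5.50% and 5.21% of the assigned reads in CGG-Cit 1 to 3. They took 6.09%, 9.84% and 6.87% in CGG 1 to 3. CGG 2 was well above the other CGG libraries, and the spread of the CGG group was large. Of 41 assembly factors tested for the 4 complexes, which build them but are not part of them, 2 fell and 1 rose, with a median of -0.19. Over all genes tested, 9.78% fell and 7.75% rose. The 4 factors of ATP synthase all had negative log2 fold changes, with a median of -0.43, beside -0.43 over the ATP synthase members, and 3 of the 4 had an unadjusted p under 0.05. The medians were -0.08 for the factors of complex I, -0.19 for those of complex III and -0.11 for those of complex IV. Fmc1, a factor of ATP synthase, fell with log2 fold change -0.54 ± 0.11 SE, adjusted p = 0.0270 in limma. Ndufaf8, a factor of complex I, fell with log2 fold change -0.51 ± 0.12 SE, adjusted p = 0.0380 in limma. Ndufaf7, also of complex I, rose with log2 fold change 0.54 ± 0.13 SE, adjusted p = 0.0325 in limma. In voom 0 of the 15 complex I factors fell and 1 rose, so the fall of Ndufaf8 did not pass there. Whether members and assembly factors differ was not tested. Of 14 regulators of mitochondrial genes tested, none passed in limma and 1 did in voom, with 4 lower and 1 higher at an unadjusted p under 0.05 in each and a median of -0.15. The mitochondrial transcription factor Tfam had 17.6, 18.7 and 19.5 FPKM in CGG-Cit libraries and 23.6, 22.4 and 27.3 FPKM in CGG libraries (log2 fold change -0.37 ± 0.10 SE, adjusted p = 0.0514 in limma), and Nrf1 had 11.2, 10.2 and 12 FPKM in CGG-Cit libraries and 14.5, 13.6 and 16.2 FPKM in CGG libraries (log2 fold change -0.38 ± 0.11 SE, adjusted p = 0.0574 in limma). Neither gene overlapped between the groups. Esrra, which encodes ERR alpha, overlapped (log2 fold change 0.05 ± 0.15 SE, adjusted p = 0.844 in limma), and the coactivator Ppargc1a lay under the filter at 0.0956, 0.118 and 0.0653 FPKM in CGG-Cit libraries and 0.321, 0.608 and 0.696 FPKM in CGG libraries.

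**Figure D5:**
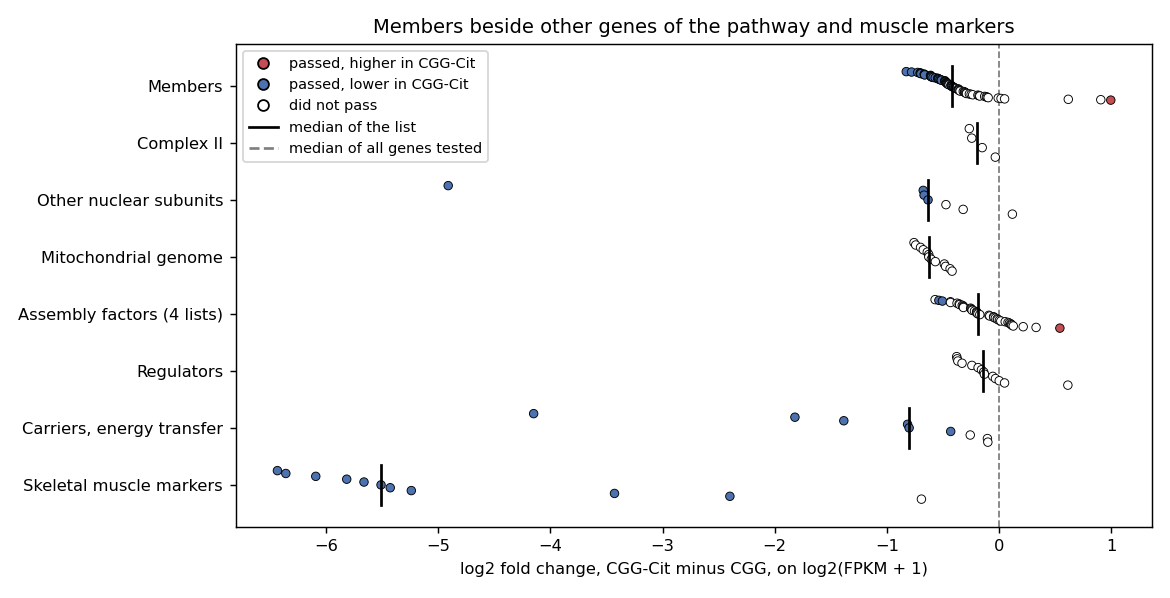
Log2 fold change, CGG-Cit minus CGG on log2(FPKM + 1), of each tested gene in the member set, in other gene lists of the pathway and in skeletal muscle markers; blue points fell, red points rose, open points did not pass, black bars are list medians and the dashed line is the median of all genes tested. The members have a median of -0.42, the assembly factors of -0.19 and the muscle markers of -5.51.

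Cox6a2, Cox8b and Slc25a4, muscle forms of subunits and of a carrier, were lower in CGG-Cit libraries by far more than the members. Cox6a2, the heart and skeletal muscle form of a complex IV subunit, had 0.413, 1.09 and 4.77 FPKM in CGG-Cit libraries and 83.7, 154 and 147 FPKM in CGG libraries (log2 fold change -5.60 ± 0.52 SE, adjusted p = 0.00394 in limma). Its general form, Cox6a1, had 307, 317 and 289.9 FPKM in CGG-Cit libraries and 239, 305 and 293 FPKM in CGG libraries, which overlapped. Cox6a2 thus made up 0.698 ± 0.803% of the summed FPKM of the pair in CGG-Cit libraries and 31.0 ± 4.34% in CGG libraries (SD, n = 3 each). Cox8b, the rodent muscle form of another complex IV subunit, had 0.205, 0 and 0.934 FPKM in CGG-Cit libraries and 18.5, 53.8 and 58.7 FPKM in CGG libraries, while its general form Cox8a overlapped (log2 fold change 0.12 ± 0.11 SE, adjusted p = 0.492 in limma). For the pair Cox7a1 and Cox7a2 the muscle form, Cox7a1, lay at or under 0.336 FPKM in every library, and Cox7a2 had 124, 116 and 104 FPKM in CGG-Cit libraries and 125, 158 and 154 FPKM in CGG libraries (adjusted p = 0.105). Of 9 carriers and energy transfer genes tested, 6 fell. Slc25a4, the ADP/ATP carrier of muscle and heart, had 102, 111 and 122 FPKM in CGG-Cit libraries and 227, 323 and 340.4 FPKM in CGG libraries (log2 fold change -1.38 ± 0.17 SE, adjusted p = 0.00842 in limma). The more general carrier Slc25a5 had 158, 148 and 148 FPKM in CGG-Cit libraries and 156, 152 and 180.0 FPKM in CGG libraries, which overlapped.

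Markers of several cell types moved together with the members, and their part in the result was not tested. Of 11 skeletal muscle markers tested, 10 fell, with a median of -5.51, and their summed level was 42.3 to 339 FPKM in CGG-Cit libraries and 6525 to 8270 FPKM in CGG libraries. Myh7, the slow myosin, was the one detected marker under the filter, and it was at 0 in some libraries. Ckm, the creatine kinase of muscle, had 10.01, 4.19 and 47.7 FPKM in CGG-Cit libraries and 1436, 977 and 1280 FPKM in CGG libraries. CGG 1, the CGG library with the lowest member sum, had the highest muscle marker sum of the CGG libraries. CGG-Cit 3 had the highest muscle marker sum of the CGG-Cit libraries. Its member sum of 5424 FPKM was close to the 5447 FPKM of CGG-Cit 1. By share of reads, CGG-Cit 1 was the lowest, at 0.467% against 0.474% in CGG-Cit 3. The tested muscle markers did not share 1 order among the CGG libraries. Ckm, Acta1, Tnnt3, Mylpf, Myh1, Pvalb and Ryr1 were highest in CGG 1, and Tnnc2, Mb, Tnni1 and Tnnt1 were lowest there. Mb, the myoglobin gene, had 5.12, 0.890 and 31.3 FPKM in CGG-Cit libraries and 94.6, 882 and 793 FPKM in CGG libraries. All 8 neutrophil markers tested fell, with sums of 2342 to 6105 FPKM in CGG-Cit libraries and 14708 to 16741 FPKM in CGG libraries. All 6 erythroid markers fell, with sums of 284 to 557 FPKM in CGG-Cit libraries and 917 to 1107 FPKM in CGG libraries, as did 5 of 8 osteoblast markers, whose sums were 5050 to 9459 FPKM in CGG-Cit libraries and 10411 to 14923 FPKM in CGG libraries. Macrophage markers rose in 8 of 10 cases, with sums of 1637 to 2388 FPKM in CGG-Cit libraries and 897 to 1045 FPKM in CGG libraries. Fibroblast markers rose in 4 of 5 cases, with sums of 232 to 356 FPKM in CGG-Cit libraries and 80.2 to 136 FPKM in CGG libraries. Of 7 osteoclast markers tested 2 rose, and their sums overlapped, at 907 to 1821 FPKM in CGG-Cit libraries and 1342 to 1756 FPKM in CGG libraries. Ucp1, which defines brown fat, was listed at 0 in all 6 libraries, and Cidea, the other brown fat marker, had 2.52, 8.07 and 5.13 FPKM in CGG-Cit libraries and 1.95, 1.76 and 1.203 FPKM in CGG libraries and did not pass (adjusted p = 0.0622 in limma).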

How the data were processed

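RNA from whole defect tissue of male Sprague-Dawley rats was sequenced as paired ends (Illumina NovaSeq), per the labels' protocols, and the authors deposited a table of FPKM per gene. Per the submitters' processing notes, the build is mRatBN7.2 and the tools include DESeq2 1.20.0, HISAT2 2.0.5 and featureCounts 1.5.0-p3, without their roles. Neither a strand setting nor the annotation release is stated in those notes or labels. The last gene on chromosome 1 of the table ends at 282724300, so its coordinates are printed as listed, with no build. FPKM times gene length gave whole reads for 100% of values, within 0.01 reads, with 14744207 to 16224920 reads per library.

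The 15965 genes that averaged 0.5 FPKM or more were tested on log2(FPKM + 1) with limma 3.58.1 in R 4.3.3 (lmFit, eBayes with trend), without a block, with Benjamini-Hochberg adjustment over all of them and a threshold of 0.05. The log2(FPKM + 1) scale understates the change of low genes. There were 18 alternative fits that changed 1 choice each (pseudocount, filter, scaling, variance, weights, block, voom or a library left out). Tables were made with pandas 2.3.3.

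The members and gene lists were chosen with earlier results of these data known. Values are given for every member that passed, the 4 with the smallest p, the highest and lowest 2 in each complex and paralogues picked by name. Other members, and Tfam, Nrf1 and the muscle markers given above other than Ckm, were named after their values were seen. Of the list symbols, Surf1, Sco2, Pet117, Myh2, Myh4 and Atp2a1 were not analysed here, and 1 member is counted but not named.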

Additional observations from a re-analysis of the deposited data

How the results depend on the processing

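Against 28 members lower and 1 higher in CGG-Cit, the count lower was 18 without the filter on low values and 13 on TPM. It was 44 at an adjusted p under 0.1 and 0 at 0.01. Over all genes tested, 5.10% fell without the filter, 5.94% on TPM, 15.1% at 0.1 and 0.977% at 0.01, beside 9.78% in the main fit. At an unadjusted p under 0.05, 48 members were lower in limma, and voom made 30 lower calls at an adjusted p under 0.05. The count higher was 2 on TPM, 2 with sample quality weights, 2 at an adjusted p under 0.1 and 0 at 0.01. Over all genes tested, 13.8%, 10.35%, 13.05% and 0.495% rose in these settings, in the same order, beside 7.75% in the main fit. On TPM the medians were -0.25 over the members, -0.22 for complex I, -0.29 for complex III, -0.34 for complex IV and -0.26 for ATP synthase. Leaving out 1 library gave 0 to 37 members lower and 0 to 2 higher, where 1.19% to 10.2% of all genes fell and 0.764% to 8.22% rose. With 2 libraries in an arm, that arm's spread is pooled with the other's. With robust variance, voom, the other pseudocounts, a filter at 2 FPKM, quantile normalization, median-of-ratios factors, or totals equalised without the top 50 genes, the count lower was within 1.5 times of 28. In those fits 8.625% to 11.62% of all genes tested fell. The causes were not tested. Without the filter, more genes entered the fit (22222).

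Cox7a2l changed sign, to 0.17 on TPM, 0.012 with totals equalised without the top 50 genes and 0.0043 with sample quality weights, and ran between -0.037 and 0.043 with 1 library left out. Atp5if1 ran between -0.049 and 0.135 with 1 library left out.

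With the replicate number as a block (replicate block), 9 members were lower and 0 higher, with 47 lower and 2 higher at an unadjusted p under 0.05. The median over the members stayed at -0.42 with 65 negative, and 1055 genes (6.61% of those tested) were lower and 612 (3.83%) higher. Same-numbered libraries did not deviate together, with correlations of -0.0956, 0.0017 and -0.0779. With 3 libraries a group, these values cannot decide whether the numbers pair the samples, and the labels do not say so.

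Depth limits Ndufa4l2 (63 to 205 reads) and Cox6b2 (17 to 44), while 65 of 70 members had at least 100 reads in every library.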

Other observations

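A further complex I subunit outside the naming rule is listed under 2 entries on chromosome 1, LOC679739 and LOC100912599, both described in the deposited table as iron-sulfur protein 6 of NADH dehydrogenase and both 639 bases long. LOC679739 had 48, 7 and 2 reads in CGG-Cit 1 to 3, against 8, 532 and 9 reads in CGG 1 to 3. LOC100912599 had 8, 5 and 10 reads in CGG-Cit 1 to 3, against 11, 3 and 204 reads in CGG 1 to 3. Their sum was 56, 12 and 12 reads in CGG-Cit libraries and 19, 535 and 213 reads in CGG libraries, so the high libraries were CGG 2 and CGG 3, each through a different entry. No test was run on these entries.

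Among the carriers, Vdac1, Vdac2 and Vdac3, the channels of the outer mitochondrial membrane, did not share a result: Vdac1 had 38.9, 36.4 and 38.1 FPKM in CGG-Cit libraries, against 57.1, 67.6 and 78.6 FPKM in CGG libraries, a log2 fold change of -0.82 ± 0.13 SE (adjusted p = 0.0145 in limma). Vdac2 had 110, 92.3 and 90.4 FPKM in CGG-Cit libraries, against 96.7, 109 and 109 FPKM in CGG libraries, and did not pass (adjusted p = 0.542 in limma). The difference between these genes was not tested.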
